A study of Drosophila melanogaster with 35 samples.

Results

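The chorion gene cluster on chromosome 3L holds Cp18, Cp15, Cp19 and Cp16, which encode structural proteins of the eggshell. Its members were chosen by position, as the windows of the replication timing (RT) profile that overlap these 4 genes (3L, dm6, 8726791 to 8732599), and 11 of 13391 windows of the genome did so. Of these 11 windows, 9 held all 4 genes, and 56 windows between 8400001 and 9050000 were used to trace the peak around them. A window is 100 kb long and windows start every 10 kb, so the 4 genes, which span 5809 bases, share their windows and cannot be told apart by RT.

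Nuclei were sorted by DNA content. RT is given as the reads of S phase nuclei over those of G1 nuclei, on a log2 scale, with 2 S phase samples per condition. By the paper's methods the G1 nuclei came from wing discs for all samples. Follicle cell S phase was thus divided by G1 of wing discs, and any copy difference between the tissues in G1 remains in the ratio. The 9 conditions were follicle cells of adult ovaries in the S phase of the endocycle (4C to 8C nuclei, Rif1- and wild-type), follicle cells in the mitotic S phase (2C to 4C nuclei, Rif1-, Rif1-/+, Rif1PP1 and wild-type) and wing imaginal discs of larvae in the mitotic S phase (Rif1-, Rif1PP1 and wild-type). Rif1- flies carried the null alleles Rif1 1 over Rif1 2, Rif1-/+ flies carried Rif1 2 over the CyO balancer, and Rif1PP1 flies carried an allele whose binding motif for Protein Phosphatase 1 (PP1) was mutated, over the null allele Rif1 1. Wild-type follicle cells came from OregonR and wild-type wing discs from yw, and the tissues also differed in library kit and sequencer. Tissue therefore cannot be told apart from strain, kit and sequencer. Follicle cell libraries were run on HiSeq X or Novaseq instruments, and which condition used which is not given in the sources used here. Differences among follicle cell conditions may thus include sequencer. The genetic background of the mutants is not given either, so Rif1 genotype cannot be told apart from background. Follicle cell nuclei were pooled from the ovaries of many females, and the 2C to 4C fraction may also hold nuclei in an endocycle. Only 1 mean per condition and window was deposited, which leaves no replicate check, SD or p-value for any difference below, and the read depth behind a window is unknown.

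Chorion genes are amplified in follicle cells: late in oogenesis, origins in the cluster fire repeatedly while the rest of the genome is silent, and forks moving outward leave a gradient of copies with the genes at its top. In the 3L cluster the amplification control element ACE3 lies just upstream of Cp18, and the preferred origin, ori-beta, lies between Cp18 and Cp15. Rif1 recruits PP1 to chromatin, where it opposes the kinases that fire origins, and in follicle cells it is known to act with SUUR to slow the forks of amplified regions. The paper assigns the endocycling fraction to an endocycle before the last, and the mitotic fraction had a lower DNA content still. The sorted nuclei thus lay below the final ploidy of follicle cells. Whether any of them were in the late stage of amplification was not tested. An S/G1 ratio averages over all sorted nuclei. Earlier replication, extra copies in every nucleus and many extra copies in a few nuclei cannot be told apart by it.

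The 4 genes lie in a row on the plus strand: Cp18 (8726791 to 8727613), Cp15 (8728481 to 8729066), Cp19 (8729865 to 8730604) and Cp16 (8731944 to 8732599). The gap between CG6511 and Cp18, which holds ACE3, is 682 bases long with 52.9% A and T, and the gap between Cp18 and Cp15, which holds ori-beta, is 867 bases long with 63.9% A and T, against 57.9% A and T over the euchromatic 3L arm. The 250 bases upstream of each annotated gene start are shown because all 4 hold the hexamer TCACGT, known from chorion promoters of insects, here in capitals.

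Cp18, chr3L:8726541-8726790, plus strand: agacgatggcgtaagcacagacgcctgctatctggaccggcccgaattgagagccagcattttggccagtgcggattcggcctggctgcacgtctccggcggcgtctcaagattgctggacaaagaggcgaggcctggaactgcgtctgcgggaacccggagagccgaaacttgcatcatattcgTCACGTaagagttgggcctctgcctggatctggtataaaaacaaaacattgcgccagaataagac
Cp15, chr3L:8728231-8728480, plus strand: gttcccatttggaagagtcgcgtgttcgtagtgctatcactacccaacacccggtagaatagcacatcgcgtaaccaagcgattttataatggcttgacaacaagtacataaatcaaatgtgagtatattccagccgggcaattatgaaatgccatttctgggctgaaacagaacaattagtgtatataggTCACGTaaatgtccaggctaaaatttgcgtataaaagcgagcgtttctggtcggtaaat
Cp19, chr3L:8729615-8729864, plus strand: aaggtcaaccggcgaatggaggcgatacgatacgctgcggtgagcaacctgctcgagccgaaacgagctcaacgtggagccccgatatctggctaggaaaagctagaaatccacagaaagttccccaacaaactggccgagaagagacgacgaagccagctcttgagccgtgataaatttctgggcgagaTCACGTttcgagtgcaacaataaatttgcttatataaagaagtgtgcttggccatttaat
Cp16, chr3L:8731694-8731943, plus strand: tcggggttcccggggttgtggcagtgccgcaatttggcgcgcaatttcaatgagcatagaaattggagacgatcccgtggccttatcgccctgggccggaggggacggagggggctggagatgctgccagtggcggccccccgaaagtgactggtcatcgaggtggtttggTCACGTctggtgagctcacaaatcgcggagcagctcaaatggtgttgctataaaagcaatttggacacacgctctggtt

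Each of these stretches held TCACGT once, on the strand of the gene, starting 65 bases before Cp18, 59 before Cp15, 60 before Cp19 and 79 before Cp16. TCACGT or its reverse complement ACGTGA was found in the 250 bases upstream of 721 of 13945 protein-coding genes (5.17%), and in 3 of the 5 chorion genes of the cluster on X (Cp36, Cp38 and Cp7Fc). A match is a description of these letters and was not tied to the RT values.

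The highest RT value at the cluster was found in Rif1- endocycling follicle cells. Over the 9 windows that hold all 4 genes, the log2 S/G1 ratio averaged 1.33 there, with windows between 1.20 and 1.42, a ratio of 2.52. In wild-type endocycling follicle cells it averaged 0.83 (0.70 to 0.89), a ratio of 1.78. All 9 windows were above a log2 ratio of 1, a doubling over G1 relative to the genome as a whole, in Rif1- endocycling cells, and 0 of 9 were in any other condition.

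Among mitotic follicle cells the mean log2 ratio over these 9 windows was 0.69 in Rif1- (0.56 to 0.75), 0.69 in Rif1-/+ (0.56 to 0.75), 0.59 in Rif1PP1 (0.45 to 0.65) and 0.41 in wild type (0.34 to 0.45). The window ranges of Rif1- and Rif1-/+ overlapped almost completely, and those of Rif1- and wild type did not overlap. Windows of 1 profile share most of their reads, and their range describes the shape of the peak and not an error.

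Wing discs had no peak at the genes. The mean log2 ratio was 0.16 in Rif1- wing discs (0.12 to 0.19), 0.11 in Rif1PP1 wing discs (0.09 to 0.13) and 0.11 in wild-type wing discs (0.08 to 0.13). The wing disc values all lay below the lowest window of wild-type mitotic follicle cells. The order of the 9 conditions from high to low was Rif1- endocycling, wild-type endocycling, Rif1-/+ and Rif1- mitotic (which differed by less than 0.01), Rif1PP1 mitotic and wild-type mitotic follicle cells, and then the 3 wing disc conditions, among which the window ranges overlapped.

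**Figure D1:**
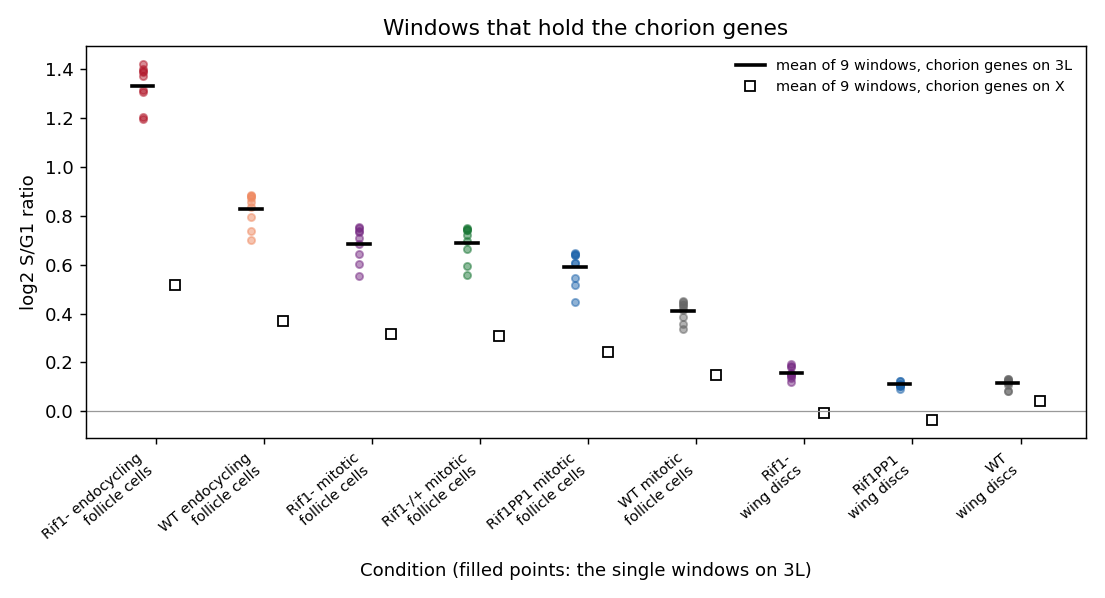
The log2 S/G1 ratio of each of the 9 windows that hold Cp18, Cp15, Cp19 and Cp16 (filled points) and their mean (bar), with the mean over the 9 windows that hold the chorion genes on X (open squares), for each of the 9 conditions. The 3L mean is 1.33 in Rif1- endocycling follicle cells and 0.83 in wild-type endocycling follicle cells, and lies above the X mean in every condition.

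Set against the whole genome, 99.9% of all windows had a lower value than the cluster mean in Rif1- endocycling cells, 99.7% in endocycling cells of wild type and 99.02% in mitotic follicle cells of wild type. Only 16 windows of the genome exceeded the cluster mean in Rif1- endocycling cells, of which 5 were windows of the cluster peak itself and 9 were windows on the arm of X. In every one of the 6 follicle cell conditions, 0 windows elsewhere on the euchromatic 3L arm exceeded the cluster mean. In pericentric heterochromatin of 3L, 3 windows did in Rif1- mitotic cells, up to 0.83, 1 in Rif1-/+, 3 in Rif1PP1 and 2 in wild-type mitotic cells, and 0 in endocycling cells. In wing discs the cluster was also among the earlier regions, with 98.9% of windows lower in Rif1-, 96.5% in Rif1PP1 and 98.0% in wild type, but 102, 166 and 72 other windows of the euchromatic 3L arm exceeded it there.

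The peak was traced from 8400001 to 9050000, and its height was taken over the flank level, the median of the windows within 100 kb of either end of the traced midpoints. The height on the log2 scale was 1.31 in Rif1- endocycling cells, 0.88 in wild-type endocycling cells, 0.74 in Rif1- mitotic cells, 0.71 in Rif1-/+ mitotic cells, 0.66 in Rif1PP1 mitotic cells and 0.43 in wild-type mitotic cells. The highest window of each follicle cell profile had its midpoint at 8720000 or at 8750000, 9.70 kb to the left or 20.3 kb to the right of the middle of the genes, on a plateau where all windows hold the genes. In wing discs the highest traced window lay 49.7 kb to the left of the genes in Rif1-, 60.3 kb to the right in Rif1PP1 and 70.3 kb to the right in wild type, and stood only 0.19, 0.14 and 0.08 above the flank level.

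**Figure D2:**
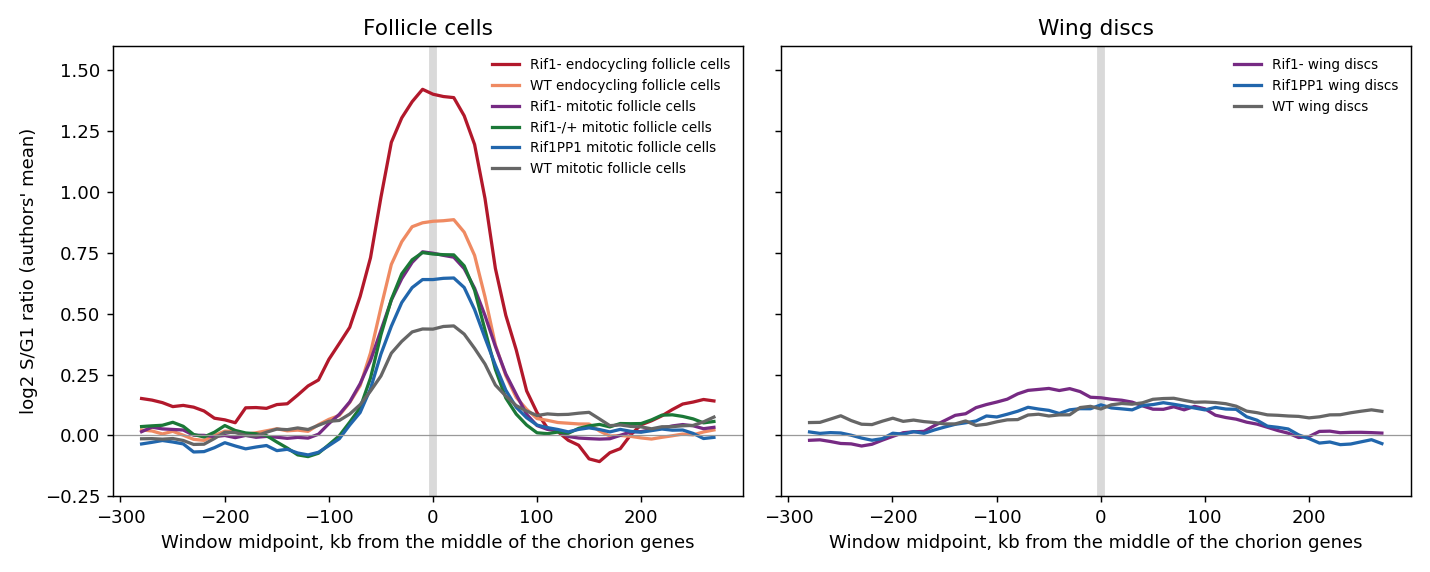
The log2 S/G1 ratio of the 56 traced windows against the distance of their midpoints from the middle of the 4 genes (grey bar), for the 6 follicle cell conditions (left) and the 3 wing disc conditions (right). All follicle cell profiles peak over the genes, up to 1.42 in Rif1- endocycling cells and 0.89 in wild-type endocycling cells, while the highest wing disc window is at 0.193.

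The width of the peak at 0.5 of its height was similar in all follicle cells: 116 kb in Rif1- endocycling cells, 111 kb in wild-type endocycling cells, 112 kb in Rif1- mitotic, 103 kb in Rif1-/+ mitotic, 109 kb in Rif1PP1 mitotic and 108 kb in wild-type mitotic cells. A 100-kb window spreads any narrower block over about its own length, so widths near 100 kb are set largely by the window. The mutant widths differed from those of wild type at the same stage by -5.21 to 5.07 kb, less than the 10-kb slide. This interval of wild-type endocycling cells ran from 8675637 to 8786339 and held 11 annotated genes besides the chorion genes, 9 of them protein-coding. They were hry, the hairy gene, which encodes a transcriptional repressor of segmentation, SrpRbeta, a subunit of the receptor for the signal recognition particle, Prm, the muscle protein paramyosin, Fhos, a formin that assembles actin, and CG32022, CG6511, CG43965, CG13306 and CG6576. The non-coding genes were lncRNA:CR44526 and lncRNA:CR44527. These genes share the RT values of the peak because they share its windows.

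A finer view came from the steps between successive windows. When a window slides by 10 kb it takes in 1 bin of 10 kb and drops the bin 100 kb away, so 10 times the change in the linear ratio gives the S/G1 ratio of a bin relative to the bin 100 kb to its left, and likewise to its right when the bin is dropped. The 4 genes lie in the bins 8720001 to 8730000 (Cp18, Cp15 and the start of Cp19) and 8730001 to 8740000 (the end of Cp19, and Cp16).

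In Rif1- endocycling cells the first of these bins was 3.11 above the bin to its left and 3.26 above the bin to its right, and the second bin was 3.34 and 3.55 above. In wild-type endocycling cells the first bin was 1.74 and 1.86 above, and the second 1.88 and 1.897 above. Both sides gave closely similar values, and the Rif1- values lay above all wild-type values in both bins. The mean of both bins and both sides was 3.32 in Rif1- and 1.85 in wild-type endocycling cells.

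In mitotic follicle cells the same mean was 1.16 in Rif1-, 1.5 in Rif1-/+, 1.08 in Rif1PP1 and 0.64 in wild type. The Rif1-/+ profile thus had higher gene bins (1.58 and 1.42, averaged over both sides) than the Rif1- profile (1.12 and 1.20), although the 100-kb means of both were 0.69. In wing discs the mean was 0.02 in Rif1-, -0.06 in Rif1PP1 and -0.04 in wild type, below the steps of all follicle cells.

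The steps fell off on both sides of the genes. In Rif1- endocycling cells the mean step was 1.84 in the bin from 8710001 and 1.28 in the bin from 8700001 to the left of the genes, and 1.83, 1.24 and 1.17 in the bins from 8740001, 8750001 and 8760001 to the right. In wild-type endocycling cells the left bins gave 1.14 and 0.59, and the right bins 1.08, 0.74 and 0.29. Bins with at least 0.5 of the highest step spanned 4 bins, from 8710001 to 8750000, in both endocycling conditions and in Rif1-/+ and wild-type mitotic cells, and 5 bins, up to 8760000, in Rif1- and Rif1PP1 mitotic cells. At that level the raised steps therefore spanned 4 to 5 bins of 10 kb, less than a 100-kb window can show.

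The ratio of the Rif1- step to the wild-type step in endocycling cells was 1.77 and 1.82 in the gene bins, 1.63 and 1.69 in the bins next to them, 2.17 in the bin from 8700001, 1.69 in the bin from 8750001, and 4.07 in the bin from 8760001, 35.3 kb to the right, where the wild-type step was 0.29. In that bin the Rif1- step differed between the sides (0.93 and 1.41), and the next bin out gave -0.37 against its left and 0.68 against its right neighbour. Steps over 30 kb from the genes were therefore less certain than those at the genes: the bin from 8690001 also gave 0.61 and 0.08 in Rif1- and 0.40 and -0.06 in wild-type endocycling cells.

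**Figure D3:**
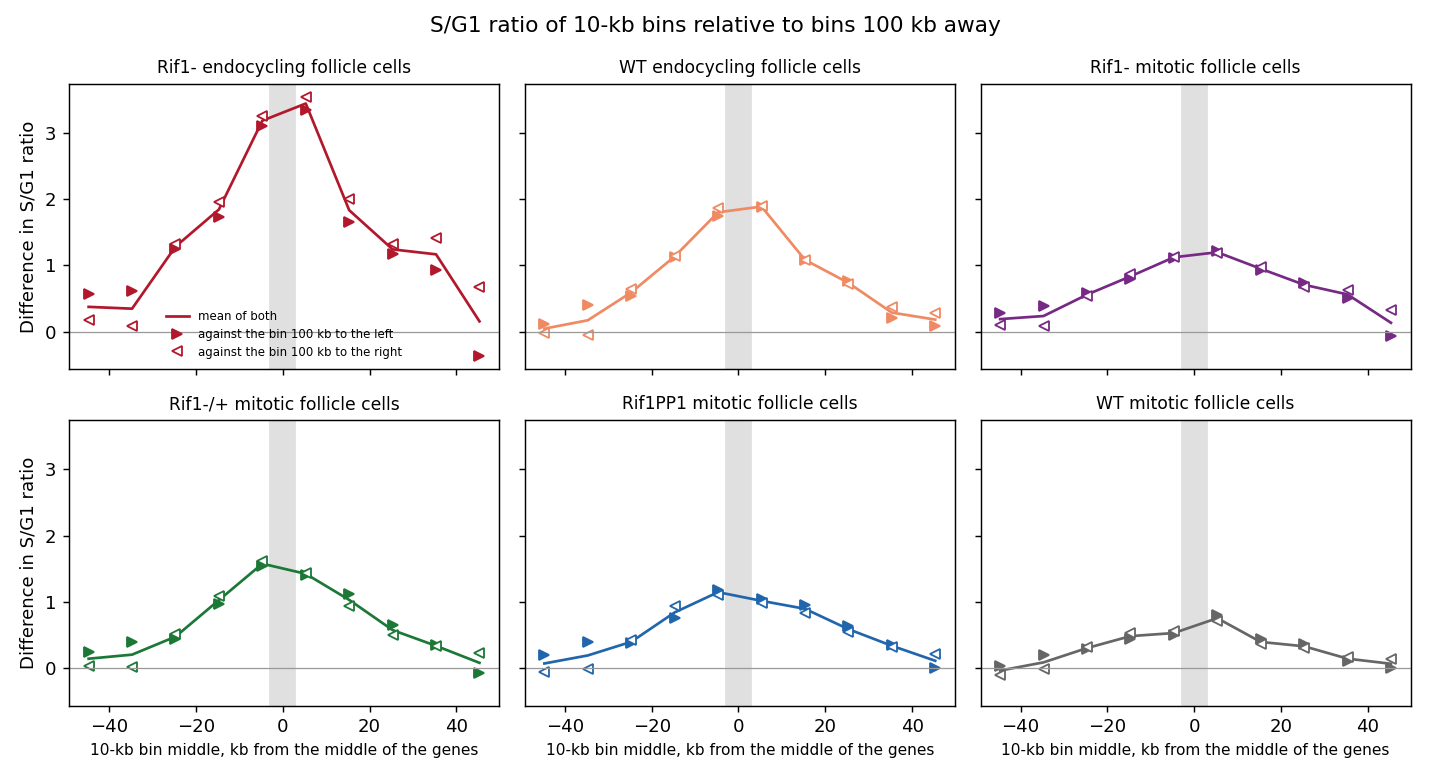
The approximate S/G1 ratio of each 10-kb bin minus that of the bin 100 kb to its left (filled) or right (open), with their mean (line). Values are set against the distance from the middle of the genes (grey bar) in the 6 follicle cell conditions. The highest mean step is 3.44 in Rif1- endocycling cells and 1.89 in wild-type endocycling cells, and the steps fall off within about 50 kb.

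The linear excess over the flank level put the conditions in proportion. At the genes it was 1.44 in Rif1- endocycling cells and 0.78 in wild-type endocycling cells, a 1.86-fold excess, and 0.60 in Rif1- mitotic cells and 0.32 in wild-type mitotic cells, a 1.89-fold excess. From stage to stage it was 2.42-fold higher in endocycling than in mitotic Rif1- cells and 2.46-fold higher in endocycling than in mitotic wild-type cells. Absence of Rif1 thus went with nearly the same fold of excess in both stages, from which a like fold of the endocycle in both genotypes follows by arithmetic. On the log2 scale the deposited Rif1- minus wild-type difference was 0.50 in endocycling and 0.28 in mitotic cells. Whether these 2 differences differ could not be tested on means. The excess in mitotic cells was 1.85-fold that of wild type in Rif1-/+ and 1.64-fold in Rif1PP1.

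The area under the peak, summed as linear excess over the traced length, was 168 kb in Rif1- endocycling cells and 95.5 kb in wild-type endocycling cells (1.76-fold). Among mitotic cells it was 70.2 kb in Rif1-, 57.1 kb in Rif1-/+, 61.1 kb in Rif1PP1 and 41.7 kb in wild type, which gave 1.69-fold, 1.37-fold and 1.47-fold over wild type. The order of the mutants turned with the base: over the median of the arm windows the area was 80.6 kb in Rif1-, 74.7 kb in Rif1-/+ and 54.3 kb in Rif1PP1. Over the flank level, at 79.7 kb to the left of the genes the Rif1-/+ excess was 1.17% of its excess at the genes, against 14.5% in Rif1- and 15.4% in wild-type mitotic cells, and at 80.3 kb to the right it was 5.32%, 18.5% and 23.6% in the same order.

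In Rif1- endocycling cells the windows to the left of the peak were also higher than in wild type. The window 99.7 kb to the left of the genes had a log2 ratio of 0.31 in Rif1- and 0.07 in wild-type endocycling cells. The window 120 kb to the left had 0.20 in Rif1- and 0.02 in wild type. The level at the left end of the traced region was itself 0.12 in Rif1- and 0.01 in wild type. Over the flank level, these windows had 11.3% and 5.01% of the excess at the genes in Rif1-. In wild type they had 5.89% and 1.36%. Rif1- wing discs, which had no peak at the genes, were also above wild-type discs in these windows. They were at 0.14 against 0.06 and at 0.11 against 0.04. To the right, the window 160 kb away was at -0.11 in Rif1- and at 0.02 in wild-type endocycling cells. Beyond 50 kb the linear area was 18.8 kb to the left and 10.2 kb to the right in Rif1-, against 7.53 kb to the left and 13.8 kb to the right in wild-type endocycling cells.

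For the comparisons between conditions, the profiles of each pair were quantile normalized to each other, and a window was called when its log2 values differed by over 0.1. Endocycling against mitotic follicle cells asks how the region changes when the cells leave the mitotic cycle. All 11 windows that overlap the genes were called higher in wild-type endocycling than in wild-type mitotic follicle cells, where 1.44% of all windows were called higher. The paper also required an adjusted p-value from replicates, and it reported no differential window in the genome for this comparison. The calls here rest on the threshold alone. The difference at the genes was 0.41, with windows between 0.29 and 0.45, and 0.25 with all 9 conditions normalized together. Only 6 windows of the genome had a larger difference, and 5 of them were windows of the peak.

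In Rif1- endocycling against Rif1- mitotic follicle cells, all 11 windows were again higher, against 19.5% of all windows. The difference at the genes was 0.37 after normalization and 0.65 as deposited. It was exceeded by 30 windows after normalization, 4 of them in the traced region, and by 19 as deposited.

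Rif1- cells were compared with wild-type cells within each stage. All 11 windows were higher in Rif1- than in wild-type mitotic follicle cells (13.4% of all windows were), with a difference of 0.34 at the genes and windows between 0.21 and 0.43. All 11 were also higher in Rif1- than in wild-type endocycling follicle cells (24.4% of all windows were), by 0.48 at the genes, with windows between 0.13 and 0.71. Larger differences were found in 655 windows outside the traced region in mitotic cells, 604 of them in pericentric heterochromatin or on chromosome 4, and in 607 windows in endocycling cells, 592 of them there. On the chromosome arms outside the region, 51 windows differed more in mitotic and 15 in endocycling cells after normalization. As deposited, 212 did in mitotic and 25 in endocycling cells.

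In Rif1-/+ mitotic follicle cells 9 of 11 windows were higher than in wild type, against 15.5% of all windows, and the difference at the genes was 0.21. The remaining 2 windows had differences from 0.00 to 0.04. In Rif1PP1 mitotic follicle cells all 11 windows were higher than in wild type, against 15.8% of all windows, with a difference at the genes of 0.22 and windows between 0.12 and 0.26. All 3 mutant profiles were compared with the same wild-type profile, so that these differences share its error. As deposited, Rif1- was 0.005 below Rif1-/+ (windows between 0.02 below and 0.01 above), and Rif1PP1 was 0.10 below Rif1-.

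In wing discs the mutant values at the cluster lay near those of wild type after pairwise quantile normalization. In Rif1- wing discs 1 of 11 windows was higher than in wild type, against 2.79% of all windows, and the difference at the genes was 0.01. In Rif1PP1 wing discs 0 of 11 windows were called, against 12.6% of all windows called in either direction, and the difference was -0.01, or 0.02 when centred on the arm median. No p-value exists for this count of 0, since the test is a threshold on means. With all 9 conditions normalized together, the differences were 0.18 in Rif1- and -0.10 in Rif1PP1 wing discs, past the threshold.

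The tissue comparison depended on the normalization. As deposited, wild-type mitotic follicle cells were 0.30 above wild-type wing discs at the genes, and all 11 windows were higher by over 0.1. After pairwise quantile normalization the difference was 0.03, with 3 windows called higher (17.1% of all windows were) and 2 called lower (18.9% of all windows were), and with single windows between -0.57 and 0.14. The values of all windows spread more in wild-type mitotic follicle cells (SD 0.30) than in wild-type wing discs (SD 0.12). The wing disc windows near the genes, in the top 13.7% of their profile, were thereby assigned the mean of their own values and the higher follicle cell values of the same rank. By rank, 99.02% of windows were below the cluster in wild-type mitotic follicle cells and 98.0% in wild-type wing discs.

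**Figure D4:**
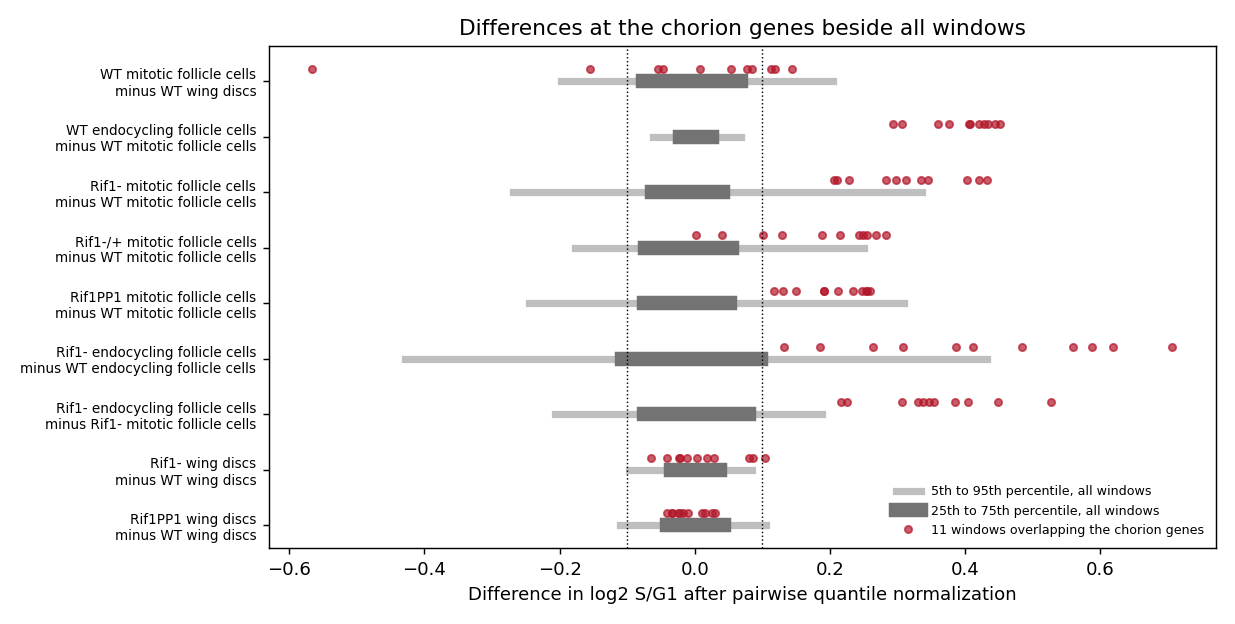
The difference in log2 S/G1 at the 11 windows that overlap the chorion genes (points) in the 9 comparisons, after pairwise quantile normalization, beside the percentile ranges of all windows that the legend names (bars), with dotted lines at 0.1 in both directions. The points lie past 0.29 between wild-type endocycling and mitotic follicle cells, and around 0 for both mutants in wing discs.

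The X-linked chorion genes (Cp36, Cp38, Cp7Fa, Cp7Fb and Cp7Fc, X, 8470888 to 8483311), the other major amplified cluster of follicle cells, are set beside the 3L cluster here. Over the 9 windows that hold them the log2 ratio was 0.52 in Rif1- endocycling, 0.37 in wild-type endocycling, 0.32 in Rif1-, 0.31 in Rif1-/+, 0.24 in Rif1PP1 and 0.15 in wild-type mitotic follicle cells, as deposited. After pairwise quantile normalization the difference between Rif1- and wild-type endocycling cells was -0.01 to 0.02 in the windows nearest these genes. At the 3L cluster it was 0.48, as a mean over 9 windows. Before normalization the X cluster was higher in Rif1- than in wild-type endocycling cells (0.52 against 0.37). Its linear excess over the flank level was 0.42 in Rif1- and 0.28 in wild type. The difference at the X cluster thus depended on the normalization. As deposited, the 3L cluster stood above the X cluster by 0.82 in Rif1- endocycling cells, 0.46 in wild-type endocycling cells and 0.26 in wild-type mitotic cells. In linear excess over the flank level, the 3L cluster was 3.46-fold above the X cluster in Rif1- endocycling and 2.77-fold in wild-type endocycling cells. In mitotic cells it was 2.56-fold above in Rif1-, 2.28-fold in Rif1-/+, 2.29-fold in Rif1PP1 and 3.12-fold in wild type.

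Of a list of 16 other eggshell genes, 15 were matched by symbol (all but dec-1), and they lie in 9 windows. In wild-type endocycling against mitotic follicle cells, 6 of 15 were called higher and 0 lower. Over all windows 1.44% were higher and 1.84% lower. The higher genes were the 5 chorion genes on X, which lie in 2 overlapping windows, and Vm34Ca, a vitelline membrane gene. The median difference of the list was 0.08, against 0.00 over all windows and 0.41 at the 3L cluster. In Rif1- against wild-type endocycling cells 6 of 15 were higher and 2 lower (Femcoat and Fcp3C), where 24.4% of all windows were higher and 26.5% lower. The higher ones, of which 4 share 1 window, were Vm26Aa, Vm26Ab and Vm26Ac, further vitelline membrane genes, with psd in the same window (0.34 in Rif1- and 0.03 in wild type), and yellow-g and yellow-g2. In mitotic cells 9 of 15 were higher in Rif1- than in wild type (13.4% of all windows were), with a median of 0.15. These 9 were the 5 chorion genes on X, in 2 overlapping windows, and the 4 genes that share the window of Vm26Aa. They thus stand for 2 places in the genome and not for 9 separate results. Femcoat was lower, at -0.37 (15.0% of all windows were lower). In Rif1PP1 0 of 15 were called higher (15.8% of all windows were), with the chorion genes on X and Vm34Ca just under the threshold, at 0.09 to 0.10. In Rif1-/+ 0 of 15 were called higher (15.5% of all windows were), with a median of 0.07. Femcoat was lower there too, at -0.15 (17.3% of all windows were lower).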

How the data were processed

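Per the paper's methods, the authors aligned reads to dm6 with Bowtie 2 (version 2.3.2), filtered them by mapping quality with SAMtools (version 1.9), counted reads in 100-kb windows at a 10-kb slide, scaled to read depth, divided S phase by wing disc G1 and averaged replicates. What was deposited is the log2 S/G1 ratio, as 1 mean per condition. The paper names wing disc G1 for all samples. Whether the wild-type or the Rif1- wing disc G1 sample served the mutant discs is not given in the sources used here. Reads per window are not used here, so depth and precision are unknown.

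Computations used Python 3.11.15 with numpy 2.4.6 and pandas 2.3.3, and figures were drawn with matplotlib 3.10.9. Window ends matched the lengths of the RefSeq Release 6 scaffolds, from which sequences were read, and genes came from the Ensembl annotation of the same build. Non-finite values (7 in Rif1PP1 and 4 in Rif1-/+ mitotic follicle cells, 0 in the traced region) were left out. Pairs were quantile normalized over all windows and called past 0.1. The limma filter of the study needs replicates and was not applied. The code was tested on simulated data. The members, gene lists and named-gene rule (genes under the peak, the eggshell list, and the 5 windows most alike) were chosen with earlier results of these data known. Alternatives were other windows, bases, scalings and thresholds. The RNA samples, and 1 sample whose labels disagree on its phase, were left out.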

Additional observations from a re-analysis of the deposited data

Results flagged for a closer look

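Rif1PP1 minus wild type at the chorion genes was 0.221 in follicle cells of the mitotic S phase, and -0.0101 in wing discs, after pairwise quantile normalization, which are of opposite sign. The sign in wing discs depended on the scaling: the difference was -0.0045 as deposited and 0.0175 centred on the arm median, where mitotic follicle cells had 0.20 and both tissues thus had the same sign. The difference between the tissues was not tested, since each value rests on 1 mean per condition, and the wing disc value is within the threshold of 0.1. Tissue cannot be told apart from strain, library kit and sequencer.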

How the results depend on the processing

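Of 162 values recomputed under another setting, 146 kept their direction, side of the threshold or size, 12 moved, 4 passed the threshold and 0 reversed, except that the small Rif1PP1 difference in wing discs turned to 0.0175 when centred. The peak height of Rif1- endocycling cells was 1.43 over the median of the arms and 1.45 over the lowest values on both sides, and its width was 105 kb at 0.5 of the linear height. The wild-type tissue difference was 0.30 both as deposited and centred on the arm median, with 11 windows called in each, and 1 window was called at a threshold of 0.2. In Rif1- wing discs 0 windows were called at 0.2, 3 as deposited, 3 centred and 9 with all conditions normalized together, where the difference was 0.18. In Rif1PP1 wing discs that setting gave -0.10 and 5 windows. In Rif1PP1 mitotic follicle cells 6 windows were called at 0.2. The folds of linear excess over the arm median, an alternative chosen after seeing the data, lay within 1.5 times of those over the flank level. The causes were not tested. Steps into and out of the gene bins, areas, ranks and values at the genes moved within their limits (1.5 times, 5 percentage points or 0.1) under every setting run. No replicate could be left out and no paired analysis was possible because only means were deposited. The 100-kb window limits the shape that can be resolved.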

Other observations

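The pattern of the central window of the cluster (8680001 to 8780000) over the 9 conditions was compared with that of windows with a wide range. The windows of the eggshell list did not reach the required range of 0.65 and so could not be found. Those of Cp36 and Cp38, for example, ran from -0.03 to 0.57. The comparison is a description over 9 conditions, of which 6 are follicle cells. By the study's methods all were divided by wing disc G1. A range of at least 0.5 times that of the central window (1.29) was found in 1089 windows outside the traced region. The 5 most alike of these windows had Pearson's r of 0.80, 0.79, 0.78, 0.74 and 0.73. The first lies on X (2870001 to 2970000) and holds 18 protein-coding genes, among them kirre and rst, which encode adhesion molecules of the immunoglobulin superfamily. Its log2 ratio was 1.03 in Rif1- and 0.99 in wild-type endocycling cells, 1.07 in Rif1- and 1.00 in wild-type mitotic follicle cells, and between 0.03 and 0.06 in wing discs. It was picked for its correlation with the cluster over these same values, so a shared contrast between tissues largely follows from the choice. Its Rif1- and wild-type values lay close together. The other 4 lay on X and in pericentric heterochromatin of 2R and 2L, and held at most 1 protein-coding gene each.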
